A study of Homo sapiens with 6 samples.

Results

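Of the 41000 non-control probes on a one-colour Agilent human array, 7577 carried no gene name and are described here as unnamed probes. They were taken by their label alone: 3263 had only their own probe number, 2569 had a THC number, and 1745 had an Ensembl transcript number (ENST). A THC is a tentative consensus assembled from expressed sequence fragments, and an ENST is a predicted or annotated transcript that the array lists by its transcript number, in some cases although its gene has a symbol. The other 33423 probes carried a gene symbol or a cDNA accession, and 26808 of them matched a single symbol in the RefSeq gene table. None of the unnamed probes matched a symbol there by label or accession, which the choice by label largely sets in advance. Some of them are placed at named genes below by position, sequence or description.

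The RNA came from HepG2, an established human hepatoma cell line. Control cells gave 1 array. The other 5 arrays were of cells given 100 µg/ml of Scutellaria baicalensis, a medicinal plant whose root is used as an extract, and taken after 1, 3, 6, 12 or 24 h. The control's exposure time and vehicle are not given in the labels. Each group held 1 array, so a difference between 2 arrays carries neither a replicate check nor a p-value, and a bulk array cannot tell less RNA per cell from fewer cells of a kind. All 10 hepatocyte and hepatoma markers examined (ALB, AFP, APOA1, APOB, TF, SERPINA1, TTR, FGB, AHSG and HNF4A) were well above background on all 6 arrays. Among 6 markers of other cells, PTPRC (a leukocyte surface phosphatase) was well above background on 1 array, COL1A1 (collagen of fibroblasts) on 0, PECAM1 on 4, CD3E on 5, and VWF and ACTA2 on 6.

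Transcripts without a gene name are of several kinds. Some are long non-coding RNAs or antisense transcripts, which are read from the strand opposite a known gene. Others are unannotated ends of known genes, pseudogenes, repeats or mitochondrial transcripts. An oligonucleotide array reads each strand separately, so a probe placed opposite a gene can in principle be compared with the probe of the gene itself. Of the 7562 unnamed probes kept after outlier flags, 7310 had a genome position on the array's own coordinates, whose build is not named in the sources used here. In 59 of 59 pairs of probes placed at overlapping positions on opposite strands, the letters of the 2 probes were reverse complements over at least 12 bases, so the strands given by the coordinates matched the sequences in these pairs.

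The probes to which the results below return are shown here as the 60 bases on the array, 5′ to 3′. In the first 2, capitals mark the bases complementary to the probe of the gene on the opposite strand, and in SMC2-DT capitals mark the bases found in the RefSeq promoter window of that gene. The mitochondrial probes are in lower case throughout. They are shown as cases of antisense, gene-start and mitochondrial positions.
A_32_P142407 opposite HSP90AA1, chr14:101617849-101617908, plus strand: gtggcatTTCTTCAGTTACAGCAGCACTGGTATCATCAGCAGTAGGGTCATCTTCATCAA
A_32_P83795 opposite RPS15, chr19:1391142-1391201, minus strand: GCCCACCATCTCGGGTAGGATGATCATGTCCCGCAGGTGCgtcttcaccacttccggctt
A_32_P2766 (THC2378571), start of SMC2-DT: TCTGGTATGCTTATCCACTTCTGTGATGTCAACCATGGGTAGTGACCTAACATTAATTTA
A_23_P317056 (ENST00000361681), chrM:14449-14508, minus strand: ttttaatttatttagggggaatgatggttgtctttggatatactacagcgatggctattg
A_24_P918875 (THC2400529), chrM:630-689, plus strand: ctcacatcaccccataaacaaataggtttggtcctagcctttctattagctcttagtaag

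Unnamed probes were detected less often than the rest on every array. The scanner software called 61.5% of the unnamed probes well above background on the control array, against 71.7% of the other probes. At 1, 3, 6, 12 and 24 h the unnamed share was 61.7%, 65.4%, 39.6%, 54.6% and 61.8%, and the share of other probes was 72.5%, 74.99%, 51.7%, 66.6% and 73.2%. The 6 h array was the dimmest, with a 75th percentile of 139 signal units, and the 3 h array the brightest at 1700. The control stood at 693, the 1 h array at 983, the 12 h array at 374 and the 24 h array at 1460. THC probes were the least detected kind (55.9% on the control), followed by probes with a number only (62.9%) and ENST probes (67.3%). Probes outside the set that carried a name but no RefSeq symbol were detected at 57.0%, close to the THC probes. Over all arrays, 2910 unnamed probes (38.5%) were well above background on every one and 2197 (29.1%) on none.

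**Figure D1:**
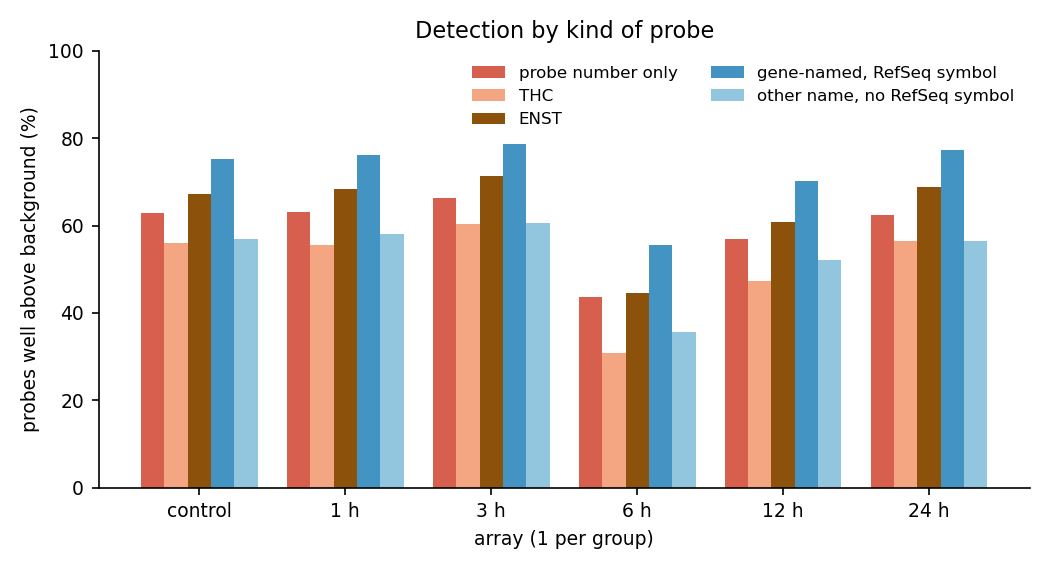
Share of probes well above background (%) on each of the 6 arrays, by kind of probe; each bar is 1 array. The THC bars are the lowest on all 6 (55.9% on the control, 31.0% at 6 h) and the bars of probes with a RefSeq symbol are highest on all 6 (75.3% on the control, 55.6% at 6 h).

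Where detected, unnamed probes were also dimmer. Levels below are log2 of the background-corrected signal minus the log2 of the array's own 75th percentile, so 0 is the level that 25% of probes exceed. The median level of detected unnamed probes on the control was -1.98, against -1.08 for the other probes. THC probes had a median of -2.83, ENST probes of -1.49 and number-only probes of -1.47. Levels of different probes also depend on their sequence, so these medians describe the probes and do not rank the transcripts.

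At 24 h more of the unnamed probes were lower than the control, and this share was larger than among the other probes. A difference is the level on the treated array minus that on the control, given for probes well above background and unsaturated on both. Of 4205 unnamed probes measured at 24 h, 901 (21.4%) were at least 2-fold lower and 282 (6.71%) at least 2-fold higher. Over all probes measured the shares were 13.6% lower and 8.68% higher. The median difference was -0.27 for unnamed probes (quartiles -0.88 and 0.26) and 0.00 for the others (quartiles -0.52 and 0.49). All 3 kinds had a median below 0: -0.34 for THC, -0.25 for number-only and -0.18 for ENST probes. Their shares at least 2-fold lower were 22.5%, 23.7% and 16.3%. Among named probes without a RefSeq symbol the share was 24.7%, and among those with one it was 9.93%. Named probes without a current symbol were thus closer to the unnamed probes at 24 h than to those with a symbol.

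At 6 h the unnamed shares were close to those of all probes, while at 1, 3 and 12 h the lower share was larger among unnamed probes. At 1 h, 108 of 4354 unnamed probes were at least 2-fold higher (2.48%, against 2.90% of all probes) and 71 were lower (1.63%, against 0.924%). The 3 h array had 208 of 4295 higher (4.84%, against 4.85%) and 269 lower (6.26%, against 4.56%). For 6 h the counts were 736 of 2867 higher (25.7%, against 23.5%) and 316 lower (11.02%, against 10.7%). At 12 h, 541 of 3899 were higher (13.9%, against 13.5%) and 539 were lower (13.8%, against 10.0%). Median differences of unnamed and other probes were -0.06 and -0.03 at 1 h, -0.01 and 0.00 at 3 h, 0.32 and 0.32 at 6 h, and 0.11 and 0.18 at 12 h. The 6 h array, where both medians were highest, was the dimmest, with the fewest probes measured.

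The balance of higher and lower unnamed probes at 3, 6 and 12 h depended on background and scaling. With normexp background correction, which models signal over local background, 93 were higher and 246 lower at 3 h, and 1252 were higher and 252 lower at 12 h. Scaled by the 75th percentile of probes detected on all arrays, 483 were higher and 456 lower at 6 h, and 381 and 695 at 12 h. Quantile normalization gave 586 higher and 384 lower at 6 h. At 24 h the lower probes outnumbered the higher ones under each of the 4 alternatives of background or scaling, from 662 against 158 with normexp to 909 against 282 with the other percentile.

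**Figure D2:**
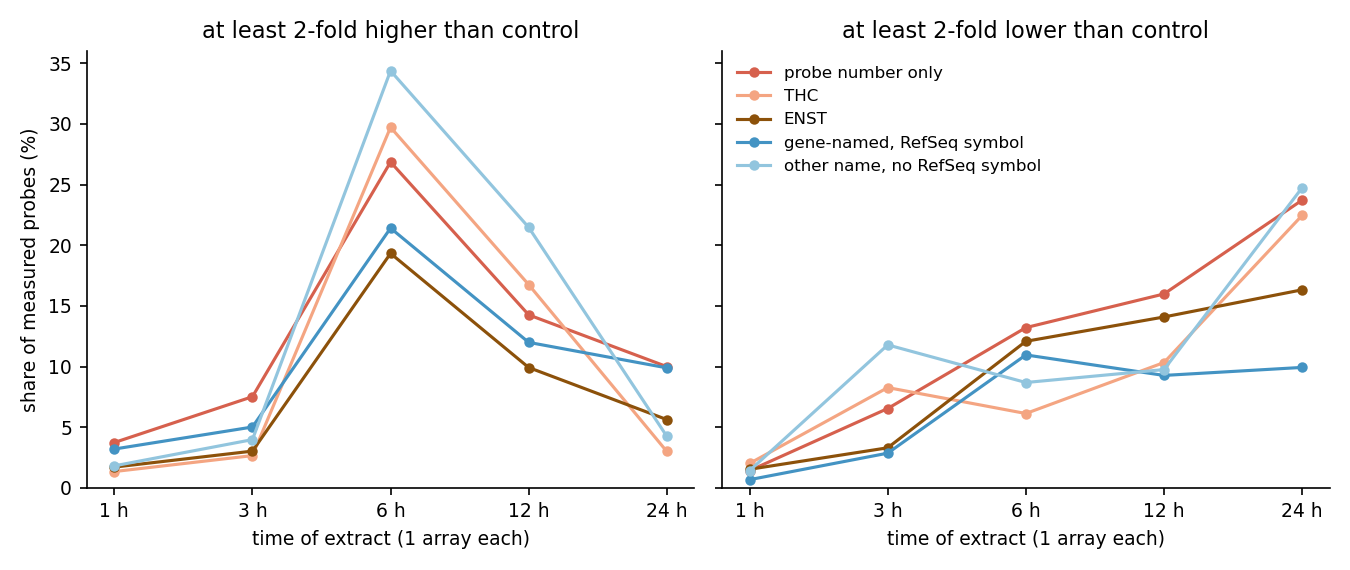
Share of measured probes (%) at least 2-fold higher (left) and at least 2-fold lower (right) than the control at each time, by kind of probe; each point is 1 array against the control array. In the right panel the number-only, THC and no-symbol lines reach 23.7%, 22.5% and 24.7% at 24 h, above the 9.93% of probes with a RefSeq symbol.

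The 24 h difference was present at every signal level, base composition and chromosome examined. Within 4 bands of control signal, dimmest first, 13.5%, 25.5%, 23.4% and 26.4% of unnamed probes were at least 2-fold lower at 24 h, against 9.50%, 14.7%, 13.5% and 10.9% of the others. By GC content the unnamed shares were 22.7% at up to 35% GC, 21.9% up to 45%, 14.6% up to 55% and 34.0% above that, and the other probes gave 15.5%, 12.2%, 7.97% and 16.7%. On all 23 chromosomes from 1 to 22 and X, the median of unnamed probes was below that of the others. It ranged from -0.49 to -0.09, and the medians of other probes from -0.08 to 0.09.

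By the description that the array gave, ribosomal-protein-like sequences stood lowest at 24 h. These are transcripts similar to, but not named as, genes for the proteins of the ribosome, and processed pseudogenes of such genes are common in the human genome. Of 82 such unnamed probes 80 were well above background on the control, and 52 were measured at 24 h. Probes saturated on either array were left out. The median difference of the 52 was -0.57, with 16 (30.8%) at least 2-fold lower and 0 at least 2-fold higher. Among all unnamed probes measured at 24 h 21.4% were lower and 6.71% higher, and over all probes 13.6% and 8.68%. Probes described as Alu-like or with a repeat-artefact warning (336, of which 169 were measured) had a median of -0.30, and those described only as unknown (4843, of which 2629 were measured) one of -0.29. Descriptions with a KIAA number (150 probes) gave a median of -0.05 at 24 h, and those of predicted or hypothetical genes (123 probes) one of -0.09.

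Unnamed probes moved most closely with an outside probe that lay close by on the same strand. For 225 unnamed probes with a probe outside the set under 1 kb away on the same strand, Pearson's r of the 24 h differences was 0.51. It was 0.45, 0.49, 0.62 and 0.51 at 1, 3, 6 and 12 h, over 240, 236, 146 and 211 pairs. For pairs 1 to 10 kb apart r was between 0.16 and 0.34 over the 5 times (0.16 over 862 pairs at the last), and for 10 to 100 kb it was 0.03 over 1222 pairs at 24 h. Across strands under 1 kb, r was -0.01 at 24 h (232 pairs), and it was 0.16, 0.03, 0.03 and -0.01 at 1, 3, 6 and 12 h. Outside the set, pairs of probes with the same name under 1 kb apart on the same strand gave 0.59 at 24 h (4276 pairs). Pairs of outside probes with different names in that position gave 0.58 at 24 h (268 pairs). At 1, 3, 6 and 12 h their r was 0.18, 0.47, 0.34 and 0.27. These values are across probes that share their array, control and chromosome region, and are given as a description.

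**Figure D3:**
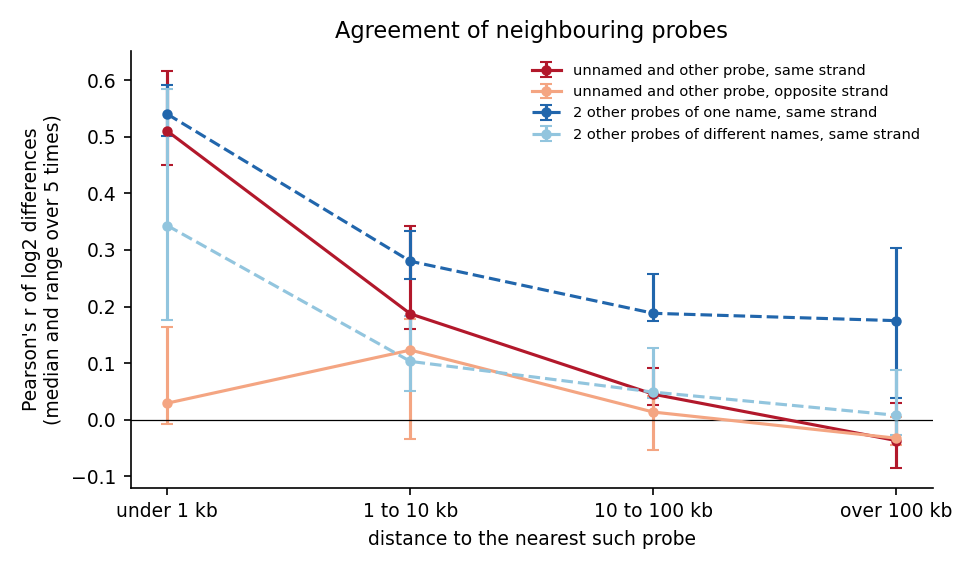
Pearson's r of log2 differences from control between a probe and its nearest neighbour, by distance and strand; points are medians and bars ranges over the 5 times. Unnamed probes with a same-strand neighbour under 1 kb sit between 0.45 and 0.62, and those with an opposite-strand neighbour under 1 kb between -0.01 and 0.16.

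A_23_P57836 is an example of a close same-strand pair. It has no gene name and lies 160 bases from a probe of BHLHE40, a stress- and clock-linked transcriptional repressor, on chr3. Its level was 2.39 on the control and 0.73, 0.33, 0.09, 1.02 and 1.95 at 1, 3, 6, 12 and 24 h. For BHLHE40 the level was 1.43 and then -0.14, -0.50, -1.77, -0.20 and 1.24. Both were below control at all 5 times, lowest at 6 h and nearest to control at 24 h. In 9 pairs of an unnamed and a named probe that shared at least 30 bases at 1 place and were measured, the error of a single probe, taken as the SD of the difference between the 2 probes over the square root of 2, was 0.35 at 24 h. For probes sharing a THC or ENST name it was 0.33, 0.39, 0.84, 0.68 and 0.59 at 1, 3, 6, 12 and 24 h. The SD of the difference between 2 such probes is larger by a factor of the square root of 2. At 6 h that SD exceeded a 2-fold difference, which is 1 on the log2 scale. Repeated spots of 1 probe differed by a median SD of 0.06 to 0.08, over 180 to 221 repeated probes an array, of which 3 were unnamed.

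Other close pairs differed. A_23_P251011 (ENST00000379969) lies 701 bases from a probe of ELL2, a transcription elongation factor, on the same strand. Its level was -2.10 on the control and -2.54, -3.84, -5.45, -7.18 and -7.64 at the 5 times, and it was no longer well above background from 6 h on. At 24 h it was at least 22.0-fold lower than control. The ELL2 probe differed from control by -0.21, -0.12, 0.24, 0.08 and -0.77. A_24_P671875 (THC2428713) lies 349 bases from a probe of BCL2L1, an inhibitor of apoptosis, and its differences were 0.29, 0.06, -2.53, -3.75 and -2.58, while the BCL2L1 probe gave 1.25, 1.04, -0.65, -0.39 and 1.04. In both cases the unnamed probe differed from control by the lower value of the pair at all 5 times.

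The unnamed probes that lie opposite another probe were described as a group, whose median differences had the same signs as those of all unnamed probes at each time and were larger. This group was chosen after its values had been seen and is given as a description. It holds the 325 unnamed probes with a probe outside the set under 1 kb away on the opposite strand and none on their own strand within 10 kb. Over the 5 times their median differences were -0.08, -0.32, 1.01, 0.62 and -0.87. Measured probes numbered 192, 183, 125, 183 and 174. At 24 h, 80 of 174 (46.0%) were at least 2-fold lower and 3 were higher, and at 6 h 63 of 125 (50.4%) were higher. Over all probes measured 13.6% were lower and 8.68% higher at 24 h, and 23.5% were higher at 6 h. Unnamed probes with no other probe within 10 kb on either strand gave medians of -0.01, 0.06, 0.26, 0.05 and -0.23. The group is 4.27% of the placed unnamed probes measured at 24 h and holds 9.24% of those at least 2-fold lower. Without it 821 of 4031 unnamed probes (20.4%) were still 2-fold lower at 24 h.

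From 3 h on, the medians were largest where the facing probe was bright, and the middle and dimmest tertiles had no common order. Where the facing probe was in the brightest tertile on the control (109 unnamed probes), the medians were -0.14, -0.81, 1.34, 0.99 and -1.56. At 24 h, 55 of 76 of these (72.4%) were at least 2-fold lower, against 13.6% of all probes measured. In the middle tertile the medians were 0.04, -0.19, 0.80, 0.36 and -0.37. The dimmest tertile gave -0.13, 0.00, 0.66, 0.29 and -0.51. The bright facing probes themselves had medians of -0.13, -0.13, 0.05, 0.06 and -0.07, with quartiles of -0.64 and 0.98 at 6 h. Of the 56 unnamed probes in the brightest tertile measured at every time, 39 (69.6%) were below control at 3 and 24 h and above it at 6 and 12 h. This sign pattern held for 18.3% of the 2686 unnamed probes measured at every time and for 13.8% of the 16328 others.

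**Figure D4:**
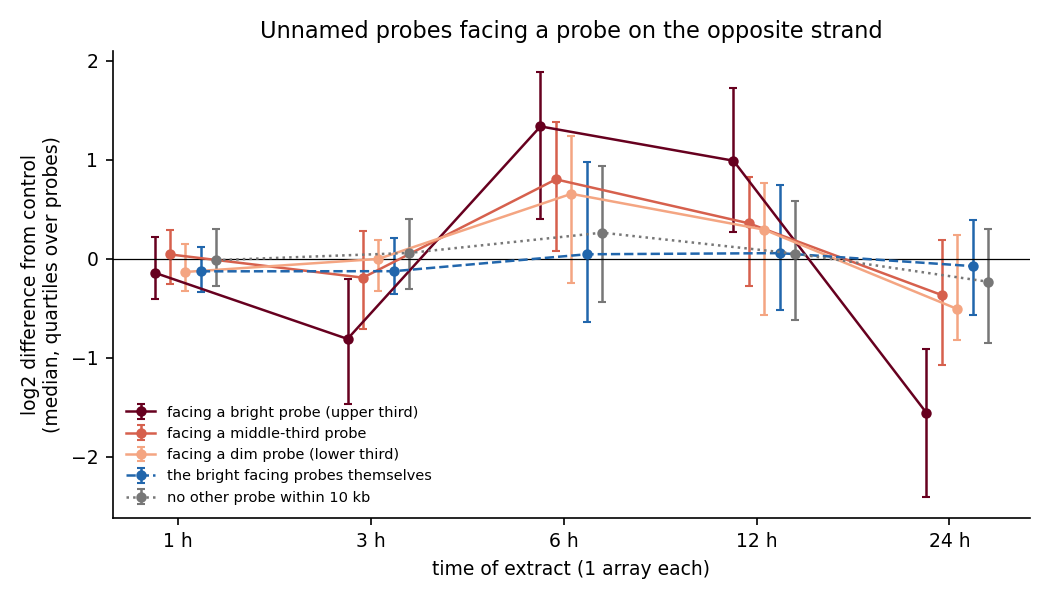
Log2 difference from control at each time (medians, with quartiles over probes) of unnamed probes facing a probe on the opposite strand under 1 kb away, split by the control level of the facing probe. Probes facing the brightest tertile run from 1.34 at 6 h to -1.56 at 24 h, while the medians of the bright facing probes lie between -0.13 and 0.06.

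The signs of these medians were opposite to those of array brightness. The log2 ratio of each array's 75th percentile to the control's was 0.50, 1.29, -2.32, -0.89 and 1.08 at 1, 3, 6, 12 and 24 h. The group was thus below control on the bright 3 h and 24 h arrays and above it on the dim 6 h and 12 h arrays. Without any scaling, the unnamed probes facing the brightest tertile differed from control by medians of 0.36, 0.48, -0.98, 0.10 and -0.48, and their facing probes by 0.38, 1.17, -2.28, -0.84 and 0.98. The unscaled values of the unnamed probes thus spanned a narrower range than those of the probes they face. The part of array brightness in this time course was not tested. Named probes under 1 kb from another outside probe on the opposite strand were also described, with same-strand neighbours allowed. Those without a RefSeq symbol (1036 probes) gave medians of -0.10, -0.57, 0.96, 0.68 and -1.18. Those with a RefSeq symbol (1781) gave 0.02, -0.04, 0.39, 0.24 and -0.04. Without a symbol 56.4% were at least 2-fold lower at 24 h and 48.5% higher at 6 h, and with a symbol 13.0% and 25.4%. Unnamed probes, with same-strand neighbours allowed, gave 38.5% and 42.8%.

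Unnamed probes facing ribosomal protein genes, also singled out after their values were seen, shared 1 direction at 3 h and at 24 h. There were 12 under 1 kb from such a gene's probe on the opposite strand, and 11 were measured at each time. These genes are among the most highly expressed in growing cells. All 11 were at least 2-fold lower at 3 h (median -1.60, from -2.34 to -1.24) and at 24 h (median -2.60, from -4.89 to -1.84). At 6 h the median was 0.65, with 5 past 2-fold above control and 1 below, and the 12 h median was 0.12. Over all probes 4.56% were 2-fold lower at 3 h and 13.6% at 24 h. Several of the 11 share a target: 2 are of THC2366887 opposite RPL9 and 2 measured ones of THC2265980 opposite RPL23A. The facing probes were often saturated, so their own change was rarely measured. Where it was, the RPL22 probe differed by -0.25 at 3 h and -0.62 at 24 h, and the RPL3 probe by 0.70 and 0.80.

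The probe of this kind shown above overlaps its gene's probe. A_32_P83795, of which 40 bases are complementary to the RPS15 probe, stood at 2.28 on the control and at 2.60, 1.04, 1.23, 0.97 and -0.62 at 1, 3, 6, 12 and 24 h. It was lowest at 24 h and, unlike 9 of the 11, below control at 6 h. A_32_P217814 (THC2268548), on the plus strand opposite RPL22, was the lowest of the 11 at 24 h: its signal was 357 units on the control and 25.4 at 24 h, a difference of -4.89. With normexp that difference was -2.95, and with the deposited values -4.03. A probe on its own strand 493 bases away, which carries an accession but no RefSeq symbol, differed by -1.66 at 3 h, 1.45 at 6 h and -2.61 at 24 h.

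**Figure D5:**
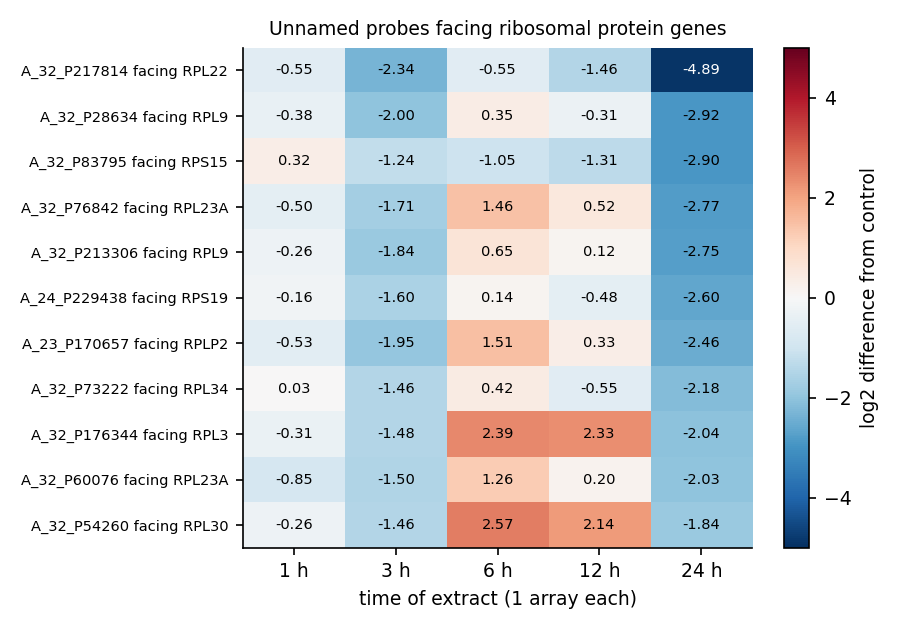
Log2 difference from control at each time (columns, 1 array each) of the 11 measured unnamed probes facing a ribosomal protein gene (rows). All cells at 3 h lie between -2.34 and -1.24 and all at 24 h between -4.89 and -1.84, while 6 h and 12 h hold both signs.

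Among unnamed probes that were also at least 1.5-fold lower at 12 h, the 5 lowest at 24 h were all under 1 kb from an outside probe on the opposite strand. Of the placed unnamed probes, 314 of 4071 measured at 24 h had this position, as did 121 of the 866 at least 2-fold lower. The 5 lowest chosen likewise at 1, 3, 6 and 12 h held 0, 3, 2 and 3 such probes, and the 5 highest at 24 h held 0. A_32_P52144, at chr19:50721715-50721774 on the minus strand, lies 78 bases from a probe of VASP, an actin-regulating protein. Its level was 2.35 on the control, 1.62 at 1 h, then -1.32, -1.23, -1.07 and -2.80. It was a little below control at 1 h and far below from 3 h on, differing by -3.67, -3.58, -3.42 and -5.15 at 3, 6, 12 and 24 h. The VASP probe differed by -0.06, -0.73, -1.49, -1.60 and -1.37, in the same direction but less. A_32_P137408 (THC2317808), 444 bases from a probe of DPYSL2, gave -1.05, -4.21, -3.76, -3.39 and -4.93, while DPYSL2 gave -0.27, -0.36, -2.02, -1.30 and -0.80. With normexp the 6 h difference of A_32_P137408 was -1.77. Both unnamed probes were low on dim and bright arrays alike, unlike the medians of the group.

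Next to the RPL22-facing probe above, 2 more complete these 5. A_32_P1841 lies 755 bases from a probe of WASF3, a relative of the WASP actin regulators, and its level went from -0.95 on the control to -0.83, -1.44, -2.92, -2.80 and -4.95. It was below control from 3 h on and lowest at 24 h, a difference of -4.00, and was not well above background at 6 h. With normexp the 24 h difference was -2.64. The WASF3 probe differed by -0.17 to 0.45. A_32_P22245, 681 bases from a probe of PAK2 (a protein kinase of the cytoskeleton), went from -1.49 to -2.03, -4.40, -3.53, -3.89 and -5.43, while PAK2 differed by -0.53, -0.50, 1.06, 0.56 and -0.68. For A_32_P22245 the 24 h difference of -3.94 became -2.33 with normexp. A_32_P450879 (THC2402213) faces IER2, an immediate early gene, at 501 bases and was among the lowest at 3 h. It differed by -1.58, -3.27, -1.37 and -3.57 at 1, 3, 12 and 24 h, and IER2 by -0.70, -0.52, 1.04 and 0.21.

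Some antisense probes were highest at 6 h and 12 h and overlapped their gene's probe. A_32_P159787, with 47 bases complementary to the probe of HNRNPH1 (an RNA-binding splicing regulator), had levels of -0.08, -0.21, -0.75, 4.16, 3.33 and 0.01 on the control and at 1, 3, 6, 12 and 24 h. At 24 h it was near control, at 1 h and 3 h below it by less than 2-fold, and it was 4.24 higher at 6 h (2.62 with normexp) and 3.42 at 12 h. The HNRNPH1 probe went the other way, by -1.62 at 6 h and -1.81 at 12 h. A_32_P142407, with 53 bases complementary to the probe of HSP90AA1 (the inducible cytosolic HSP90 chaperone), had levels of -1.70, -2.32, -3.26, 1.39, 1.37 and -4.41. It was 3.08 higher at 6 h, 3.07 higher at 12 h, and its difference at 24 h was -2.72. The HSP90AA1 probe differed by 0.09, 0.59 and 0.68 at 1, 6 and 12 h and was saturated on the other 2 treated arrays.

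Mitochondrial unnamed probes are described by strand, 1 of them being on the minus strand. The mitochondrial genome is read from both strands as long precursors that are cut into rRNA, tRNA and mRNA, and most of its genes lie on 1 strand. Of 11 unnamed probes placed on it, 10 were on the plus strand, and 6 of those were saturated on at least 1 array. A_23_P406928 (ENST00000361567), described as NADH dehydrogenase subunit 5, a part of respiratory complex I, had levels of 4.33 on the control and 4.81, 4.26, 3.49, 3.01 and 3.15. A_24_P182122 (ENST00000361390) had 4.94 and then 5.47, 4.78, 4.25, 3.92 and 3.92. Both were above control at 1 h and below it from 3 h on, with differences of -1.17 and -1.02 at 24 h. A_24_P475689 (THC2363226), the other unsaturated plus-strand probe, was dim and well above background on 3 arrays only. Its level on the control was -5.30, against a saturated 6.45 for A_23_P360209, placed beside it on that strand. Its placement rests on the array's coordinates and was not tested. A_24_P475689 was 1.61 higher than control at 1 h and 1.14 higher at 3 h, and was not well above background at 6, 12 and 24 h. A_24_P918875, near the start of the coordinate system, fell further than A_23_P406928 and A_24_P182122: from 3.07 to 2.71, 2.04, 0.36, -0.59 and 0.48. Its largest difference was -3.66 at 12 h.

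On the minus strand the signs were those of the medians of the antisense group, which does not class these mitochondrial probes as antisense. A_23_P317056 (ENST00000361681) had levels of -1.15, -2.52, -3.57, 0.79, -0.46 and -4.76. It was below control at 1, 3 and 24 h and above it at 6 and 12 h, with differences of -1.37, -2.42, 1.95, 0.69 and -3.61. Of 3 minus-strand probes outside the set, 2 were well above background on all arrays. A_24_P222054 gave -0.41, -1.26, 3.37, 2.22 and -1.73, and A_24_P239364 gave -0.79, -2.09, 4.64, 3.06 and -2.81. All 3 measured minus-strand probes thus had the same signs at each time. These signs were not confined to that strand. Outside the set, 3 plus-strand probes were saturated on no array. Among these, A_24_P930647 gave 0.33, -0.40, 0.61, 0.03 and -1.36, with the minus-strand signs from 3 h on. A_24_P710024 and A_24_P713185 were above control at 1 h by 0.04 and 0.10 and below it from 3 h on.

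Several unnamed probes with large differences had no position, or no outside probe under 1 kb. A_24_P920715, without coordinates, had the widest range: its levels were 5.29, 0.90, -3.37, 2.81, 5.48 and -2.53 on the control and at 1, 3, 6, 12 and 24 h. It was near control at 12 h and lower on the other 4 treated arrays, with differences of -8.65 at 3 h and -7.82 at 24 h. A_24_P928250, also unplaced, ran the same way with 4.25, 1.67, -0.95, 3.65, 3.83 and 1.96. A_24_P846738 on chr17, 3032 bases from its nearest same-strand probe, was higher at all 5 times: 2.58 on the control and 4.63, 4.47, 4.79, 4.65 and 4.24. A_24_P7785 on chr2 was higher early and lower late, with 1.29, 3.44, 3.02, -0.26, -0.92 and -1.31.

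Other members of the rule were highest at 24 h. A_23_P409626 (ENST00000360796) is described as a transcript of HNRNPUL2, an RNA-binding protein, with an apparent retained intron, and lies 2534 bases from that gene's probe on the same strand. Its levels were -3.18, -2.48, -2.54, -2.32, -2.12 and -0.62, above control at all 5 times and 2.56 above it at 24 h. A_24_P369172 on chr9 was near control at 1 h (0.10) and differed by 0.48, 1.49 and 2.82 at 3, 12 and 24 h. Its last value was 1.11 with normexp and 2.08 with the deposited values. A_24_P161655 on chr12 was at 0.74 on the control and at 1.83, 2.73, 2.47, 1.70 and 3.18. A_24_P255965 on chr11 gave differences of 0.97, 1.76, 2.08, 1.47 and 2.46, the last being 1.19 with normexp. Of these 4 probes, 3 were measured at all times and were higher than control at each.

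Some unnamed probes appeared on single arrays only. A_23_P128897 was well above background at 6 h alone, at least 95.1-fold above control, and A_23_P972 at least 70.8-fold. A_24_P923695 was well above background at 12 h alone, at least 53.3-fold above control. These 3 probes were seen on 1 array each. The 6 h signals of A_23_P128897 and A_23_P972 were 227 and 169 units, and the 12 h signal of A_24_P923695 was 342. All bounds here are on scaled levels, so they include the scaling of dim arrays. The 75th percentile was 139 units at 6 h and 374 at 12 h, against 693 on the control. Bounds under other background or scaling were not computed. The bound sets the bright value against the lowest signal called well above background on the dim array. Where the probe's own signal there was higher, as for A_32_P20040 below, that signal was used. In the other direction, A_32_P867077, 840 bases from a probe of GCNT2 on the opposite strand, was well above background on the control and at 12 h. At 1, 3 and 24 h it was at least 22.2-fold, 26.5-fold and 31.3-fold lower. A_32_P20040, 272 bases from a probe of YPEL2 on the opposite strand, was at least 24.0-fold lower at 3 h and 33.4-fold at 24 h. Here the facing YPEL2 probe was lower too, with differences of -1.23, -3.21, -1.74 and -3.00 at 1, 3, 12 and 24 h. In all, 280 unnamed probes (3.70%) were well above background on the control but not at 24 h, against 2.09% of the others.

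A list of stress and long non-coding RNA genes, among others, was searched for unnamed probes whose nearest outside probe within 10 kb was a listed gene, and 3 of these are described. A_23_P252413 (ENST00000245185) overlaps a probe of MT2A, a metallothionein that binds zinc and copper, and was saturated on 3 arrays. It differed by 0.91 at 6 h and -2.03 at 24 h. A_32_P1036 (THC2273614), 78 bases from a probe of the nuclear long non-coding RNA NEAT1 on the opposite strand, differed by -0.60, -0.81, 2.26 and -0.40 at 1, 3, 12 and 24 h. NEAT1 itself gave -0.05, 0.09, -0.16 and 0.56 at those times. A_24_P516728 (THC2370432) overlaps GAS5, a host of small nucleolar RNAs, and stayed within 0.59 of control, with -0.41, -0.20, -0.59, -0.42 and -0.35.

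A few unnamed probes could be placed at a current gene start. Of 35116 RefSeq promoter windows (GRCh38.p14, from 250 bases before to 50 after each start), 30 or more unbroken bases of 68 unnamed probes were found in 1 or more, 25 in the sense of the gene and 45 in the opposite sense. A_32_P2766 (THC2378571), shown above, matched the window of SMC2-DT, a divergent transcript beside SMC2, over all 60 bases. Its level was -5.48 on the control and -4.84, -4.65, -3.90, -3.68 and -3.25 at the 5 times, in rising order. Its differences were 0.64, 0.83, 1.80 and 2.23 at 1, 3, 12 and 24 h, and it was not well above background at 6 h. The 24 h difference was 0.70 with normexp, under 2-fold, and 1.52 with the deposited values. A_32_P171984 matched CYP51A1-AS1, antisense to a sterol synthesis gene, and was bright (4.89 on the control). It differed by 0.27, 0.78, -0.21 and -0.43 at 1, 6, 12 and 24 h, under 2-fold each time, and was saturated at 3 h. A_23_P206718 (THC2365798) matched the start of the metallothionein gene MT1X over 56 bases and differed by -0.02, -0.15, 0.08, 0.38 and -1.89. It was more than 2-fold lower at 24 h and at no other time.

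Over all 6 arrays, no unnamed probe had a trend over time that passed correction. A straight line on log2 of hours plus 1, with the control placed at 0 h by assumption, was fitted with limma to 28649 probes well above background on at least 3 arrays. Of these 4636 were unnamed, and 0 had a Benjamini-Hochberg adjusted p under 0.05 (0.00% of all probes); the smallest was 0.114. At an unadjusted p under 0.05, 557 unnamed probes (12.0%) had falling and 125 (2.70%) rising slopes, against 7.69% and 3.57% of all probes. The smallest unadjusted p among them was 1.2e-05, of A_23_P251011 beside ELL2, with a slope of -1.34 per unit in the limma fit. That probe was well above background on the control, 1 h and 3 h arrays alone, so its slope and p rest in part on values at 6, 12 and 24 h that were not. A_24_P92267 (ENST00000356104) on chr1 followed, with differences of -0.35, -0.96, -2.92, -2.82 and -3.81. A_32_P200429, 970 bases from a probe of the antiproliferative gene TOB2 on the opposite strand, came next with levels of 2.20, 1.94, 0.69, 0.52, 0.38 and -0.84. Rising probes included A_24_P281374 on chr5, whose levels of 1.99, 2.84, 3.17, 3.61, 3.65 and 4.17 were higher at each later time.

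Without the 2 dimmest arrays, at 6 and 12 h, many trends passed. This alternative was chosen after the data were seen, and leaves fewer residual degrees of freedom than the fit to all 6 arrays. The 75th percentiles of the arrays left were 693 units on the control and 983, 1700 and 1460 at 1, 3 and 24 h. Each treated array left was thus brighter than the control, and the part of brightness in these slopes was not tested. In the limma fit to the remaining 4 arrays, 522 unnamed probes fell and 107 rose at an adjusted p under 0.05, against 7.07% falling and 2.51% rising of all 28649 probes. The 522 are 11.3% of the unnamed probes tested and the 107 are 2.31%. With normexp background correction and all 6 arrays, 128 unnamed probes fell and 2 rose at that threshold. Over all 28649 probes 468 fell and 13 rose in that setting. Of 211 THC or ENST names shared by 440 unnamed probes, 25 had at least 2 probes past 2-fold in the same direction at the same time. Pairs of 1 name lay past 2-fold in opposite directions in 1 of 53 measured pairs at 6 h and 2 of 89 at 12 h, and in 0 at the other times. The 3 such probes of ENST00000367142 on chr1, on the strand of NUCKS1, a nuclear DNA-binding protein, differed by -2.33, -1.94 and -1.49 at 24 h, against -0.58, -0.17 and 0.29 at 1 h.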

How the data were processed

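RNA was extracted on RNeasy columns and labelled during linear amplification, per the labels' protocols. Each deposited scanner file gives, per the file headers, the intensity of every spot. The labels name Cy5, while the files hold green-channel columns. The deposited value table holds linear intensity for 35548 of the probes used, within 0.51 units of median signal minus local background for at least 99.3%. The sources used here name neither the scanner software's version nor a genome build.

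Probes with an outlier flag were left out (15 unnamed). The log2 of the processed signal was averaged over spots, less each array's 75th percentile. Differences needed a probe well above background and unsaturated on both arrays. Trends were fitted with limma 3.58.1 in R 4.3.3 (limma-trend, 4 residual degrees of freedom with all 6 arrays) and tested on simulated data. Tables used Python 3.11.15. With 1 array a group, precision is limited by their number.

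Named probes were the 5 highest and 5 lowest at each time that moved at least 1.5-fold the same way at a neighbouring time, the 5 smallest trend p each way, the 3 largest bounds a time, neighbours within 10 kb of a gene list (1 is not reported here), and up to 5 names with 2 probes past 2-fold. Examples beside genes or gene starts were added after their values were seen. Members and lists were chosen with earlier results of these data known. Alternatives were quantile normalization, normexp (offset 50), the deposited table, other filters and percentiles, a 4-fold threshold, single kinds of probe, linear hours and leaving out arrays.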

Additional observations from a re-analysis of the deposited data

How the results depend on the processing

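No paired analysis was possible because each group held 1 array. With normexp, 2-fold counts of unnamed probes moved to 50 higher and 22 lower at 1 h, 93 higher at 3 h, 499 lower at 6 h, 1252 higher and 252 lower at 12 h, and 158 higher at 24 h. Normexp also moved the gap between unnamed and other medians to 0.29 and 0.11 at 6 and 12 h, the same-strand correlations to 0.60, 0.64 and 0.49 at 1, 3 and 6 h, and the antisense medians to -0.19, -0.57, 1.36, 1.04 and -0.73. The medians facing ribosomal protein genes became 0.42 at 6 h and -2.29 at 24 h. With no filter, higher counts were 330, 590, 3451, 1129 and 506, and lower counts 302, 553, 829, 955 and 1481. On probes detected on all 6 arrays, counts were 68 higher and 37 lower at 1 h, 137 and 167 at 3 h, and 337 and 594 lower at 12 and 24 h. At 4-fold, higher counts were 2, 8, 144, 77 and 33, and lower counts 4, 32, 71, 111 and 237. Number-only probes gave 71, 364, 248 and 182 higher at 1, 6, 12 and 24 h, and 27, 121, 179, 278 and 432 lower. THC probes gave 18, 36, 228, 193 and 39 higher and 27, 112, 47, 119 and 292 lower, and ENST probes 19, 33, 144, 100 and 61 higher and 17, 36, 90, 142 and 177 lower.

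The deposited values gave 41 lower at 1 h, an antisense median of 0.49 at 12 h and a ribosomal one of -2.48 at 24 h. Quantile normalization gave -0.68 and -2.50 for these groups at 24 h. The other percentile gave 483 higher at 6 h and antisense medians of 0.71 and 0.43 at 6 and 12 h. Facing probes under 200 bases away gave -0.53, 1.16 and -1.21 at 3, 6 and 24 h, and allowing a same-strand neighbour gave 0.77, 0.50 and -0.69 at 6, 12 and 24 h. Neighbours with RefSeq symbols gave r of 0.40 at 24 h. The looser detection flag gave 77.45%, 77.5%, 82.8%, 59.4%, 73.4% and 77.2% detected. In the trend at unadjusted p, rising counts were 47 with normexp, 72 on linear hours, 350 without the 6 h and 12 h arrays, and 38 (without the control) to 420 (without 24 h) leaving out 1 array each. Falling counts were 318 with normexp, 312 on all-6 probes, 1202 without both dim arrays, and 348 (without 1 h) to 667 (without 6 h). At adjusted p, normexp gave 2 rising and 128 falling, against 13 and 468 over all probes. Leaving out both dim arrays gave 107 and 522, against 718 and 2025. Of single unnamed probes past 2-fold, 79.7% at 6 h and 87.1% at 12 h kept their direction with normexp, and the gap between medians at 12 h changed sign from -0.07. At least 96.6% kept it at the other times with normexp, and at least 98.8% under the other 3 background or scaling alternatives. Of the differences of named probes, 39 of 73 moved by at least 0.5 on the log2 scale with normexp and 17 of 71 with the deposited values, none changing sign. The cause was not tested. The 6 h array limits detection most.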
